A study of Mus musculus with 7 samples.

Results

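The AP-1 and EGR immediate early factors are 10 genes: Fos, Fosb, Fosl1 and Fosl2 of the FOS family, Jun, Junb and Jund of the JUN family, and Egr1, Egr2 and Egr3. They were picked by symbol from the 57010 genes of the deposited count table, and each symbol matched 1 row. Rows were selected by name alone, but earlier results of these data were known when the list was made. The libraries came from Tim4+ resident macrophages, which the labels describe as sorted by flow cytometry on CD11b, MHCII and Tim4 from C57BL/6 mice. There were 3 libraries of mice in steady state, with no injection named in the labels, and 4 libraries of mice 12 days after injection of m204 MTO, a name the labels do not spell out. No age is given, and no source used here says whether a library holds 1 animal or a pool. P-values therefore measure the spread between these libraries.

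FOS and JUN proteins are leucine zipper proteins that pair with each other as AP-1 and bind the motif TGANTCA, while EGR proteins are zinc finger factors that bind GC-rich sites. Most of these genes are immediate early genes: serum response factor with its ELK partners, and CREB at cyclic AMP response elements, act on them within minutes of a signal through MAP kinases, with no need for new protein. In macrophages AP-1 opens enhancers together with lineage factors, and the same genes are also known to be induced while cells are isolated from tissue.

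The data collected were poly-A RNA reads counted per gene, with totals of 32077050 to 38586694 counts per library. Levels are CPM, read counts relative to the library total after scaling by TMM, an edgeR factor for differences in composition. The limit of detection was set at 3 reads per library, which equals 0.0754 to 0.0958 CPM. Mitochondrial transcripts took 1.11% to 1.25% of counts in steady state, 1.66% to 1.79% in day 12 replicates 1 to 3 and 0.858% in day 12 replicate 4, which stands apart. The nuclear RNAs Malat1 and Neat1 took 0.103% to 0.123% of counts in steady state and 0.158% to 0.225% at day 12, without overlap, and their part in the results was not tested. All 10 markers of resident peritoneal macrophages passed the filter on low counts, and their summed level was 27546 to 29223 CPM in steady state and 30749 to 31576 CPM at day 12. Of these, 4 rose (Adgre1, Gata6, Itgam and Mertk, from 1.39-fold to 1.84-fold) and 2 fell, Csf1r (0.743-fold) and Timd4 (0.514-fold, edgeR adjusted p = 0.00484), which encodes the Tim4 used in the sort. Without steady-state replicate 1, or replicate 3, 1 rose and 1 fell. Without steady-state replicate 2, or day 12 replicate 1, 2 or 3, 1 fell. Over all genes tested, with every library, 10.1% rose and 10.2% fell. Floors and counting intervals cover counting error only.

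The promoter windows of 3 members that rose (Fos, Fosb and Junb) and of Fosl2, a member whose level did not pass, are shown because they differ in the letters of the cyclic AMP response element. Each is the 250 bases before the annotated start in RefSeq on GRCm38.p6: chr12:85473640-85473889 on the plus strand for Fos, chr7:19310046-19310295 on the minus strand for Fosb, chr8:84978749-84978998 on the minus strand for Junb and chr5:32136222-32136471 on the plus strand for Fosl2. Capitals mark TGACG, the core of that element, or GCGGGGGCG, an EGR site.
Fos: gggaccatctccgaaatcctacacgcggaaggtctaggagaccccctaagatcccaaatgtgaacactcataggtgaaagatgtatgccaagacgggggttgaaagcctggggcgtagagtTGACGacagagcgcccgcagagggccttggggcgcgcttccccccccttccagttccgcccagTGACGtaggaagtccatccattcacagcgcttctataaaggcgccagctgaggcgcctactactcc
Fosb: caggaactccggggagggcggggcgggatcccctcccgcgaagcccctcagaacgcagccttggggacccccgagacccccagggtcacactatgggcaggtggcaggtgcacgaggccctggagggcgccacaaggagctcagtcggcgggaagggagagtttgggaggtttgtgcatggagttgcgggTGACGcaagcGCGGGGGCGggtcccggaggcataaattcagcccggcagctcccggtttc
Junb: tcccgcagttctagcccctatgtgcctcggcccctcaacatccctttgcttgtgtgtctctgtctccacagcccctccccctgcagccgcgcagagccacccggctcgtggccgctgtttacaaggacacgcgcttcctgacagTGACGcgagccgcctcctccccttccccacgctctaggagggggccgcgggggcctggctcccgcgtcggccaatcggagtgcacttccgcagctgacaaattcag
Fosl2: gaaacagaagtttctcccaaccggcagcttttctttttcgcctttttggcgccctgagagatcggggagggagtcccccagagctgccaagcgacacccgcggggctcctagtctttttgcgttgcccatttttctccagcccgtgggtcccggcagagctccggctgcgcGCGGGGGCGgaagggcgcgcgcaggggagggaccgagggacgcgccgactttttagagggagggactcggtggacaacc

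TGACG stood 2 times in the Fos window and 1 time each in the Fosb and Junb windows, and GCGGGGGCG stood 1 time each in the Fosb and Fosl2 windows. Both strands were searched for these motifs, for TGACGTCA (the full element, which contains TGACG on each strand), TGANTCA, GCGTGGGCG and the CArG box of serum response factor. Of 32851 RefSeq windows of the same length, 17.8% held TGACG, 2.57% GCGGGGGCG, 6.75% TGANTCA and 1.47% a CArG box. Windows of 7 of the 10 members were searched: Fos, Fosb, Fosl2, Jun, Junb, Jund and Egr2. Chromosome 18, which holds Egr1, was left out of the search of members, so nothing is said about the Egr1 promoter. Jun and Jund windows held no exact match to any of the motifs. The Jun window does hold tgacatca, which differs from TGACGTCA by 1 letter. Of the 5 annotated Egr2 starts, 3 had TGACG together with a CArG box. Their windows overlap and hold the same sites, and start 2 had a different CArG box without TGACG. All of these are matches of letters and not measured binding. A window without a match says nothing about near matches or more distant sites.

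The comparison asked how these factors stood in Tim4+ macrophages 12 days after MTO injection against steady state. Of the 10 members, 9 passed the filter on low counts, and Fos, Fosb, Junb and Egr1 rose (edgeR quasi-likelihood test, adjusted p below 0.05 over all 15981 genes tested). Over all genes tested, 20.3% were called, 10.1% as higher and 10.2% as lower. No member fell: 0 were lower with edgeR, DESeq2 or limma-voom, and 0 had an unadjusted p below 0.05 in that direction. Jun, Jund and Egr2 did not pass, although 7 members, these 3 included, had an unadjusted p below 0.05 with a higher value at day 12. DESeq2 called these 3 higher as well, with adjusted p of 0.0279 for Jun, 0.0211 for Jund and 0.0441 for Egr2. It also called more genes in general, 2098 higher and 1966 lower against 1616 and 1626 with edgeR. The groups did not overlap in 6 of the 9 tested members, each higher at day 12, where 16.5% of all genes tested lay so. The median log2 fold change was 0.86 over the 9 members and 0.00309 over all genes tested. In bulk RNA, more cells with a transcript and more transcript per cell cannot be told apart.

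**Figure D1:**
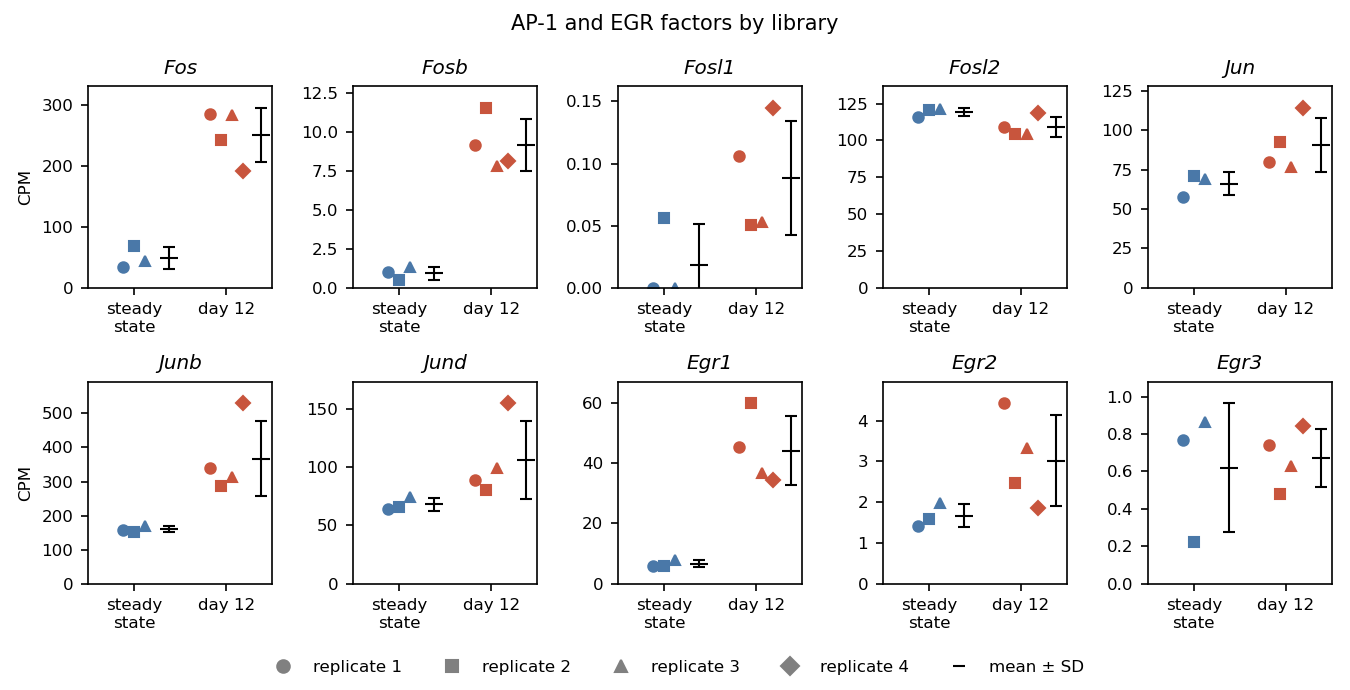
CPM (linear axes from 0) of each of the 10 members in every library, steady state in blue and day 12 in red, with symbols for replicate numbers and bars for mean ± SD. Fos, Fosb, Junb and Egr1 lie apart between the groups, Fosl2 and Egr3 do not, and day 12 replicate 4 is the highest library for Jun, Junb and Jund.

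Among the FOS family, Fos (ENSMUSG00000021250, GRCm39 chromosome 12, 85520664 to 85524047) encodes the founding AP-1 subunit, which cannot pair with itself and needs a JUN partner. It stood at 33.7, 68.2 and 44.0 CPM in steady-state replicates 1, 2 and 3, and at 285, 243, 284 and 191 CPM in day 12 replicates 1, 2, 3 and 4. The lowest day 12 library was 2.80 times the highest of steady state, so the groups lay well apart, with replicate 2 the highest of steady state. The means were 48.6 ± 17.7 CPM (SD, n = 3) and 251 ± 44.5 CPM (SD, n = 4), a log2 fold change of 2.37 (SE 0.25, edgeR adjusted p = 0.000382), or 5.16-fold.

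Fosb (ENSMUSG00000003545, chromosome 7, 19036621 to 19043976) encodes a close relative of Fos. Its steady-state libraries held 1.01, 0.476 and 1.31 CPM, and its day 12 libraries 9.16, 11.6, 7.84 and 8.15 CPM. Every day 12 library was at least 5.99 times the highest of steady state. The fitted log2 fold change was 3.31 (SE 0.33, 95% interval 2.56 to 4.05, edgeR adjusted p = 0.000265), from 0.931 ± 0.422 CPM (n = 3) to 9.18 ± 1.70 CPM (n = 4). Its steady-state level rests on 17 to 41 reads per library.

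Fosl2, which encodes the FOS-related protein Fra-2 (ENSMUSG00000029135, chromosome 5, 32293145 to 32315186), was nearly level between libraries. It stood at 116, 121 and 121 CPM in steady state and at 109, 105, 105 and 119 CPM at day 12, with overlapping groups. The log2 fold change was -0.13 with a 95% interval of -0.34 to 0.08 (edgeR adjusted p = 0.376), an interval that reaches from 0.791-fold to 1.06-fold. Fosl1, which encodes Fra-1 (ENSMUSG00000024912, chromosome 19, 5497575 to 5505974), was close to the floor and was not tested. It had 0, 2 and 0 reads in steady state and 4, 2, 2 and 5 reads at day 12, a ratio of 4.36 after scaling with a 95% counting interval of 0.988 to 39.8. Fosl1 shares 2767 bases with Ccdc85b on the other strand, and no source used here says whether the counting used strand.

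Among the JUN family, Junb (ENSMUSG00000052837, chromosome 8, 85701113 to 85705347) encodes a JUN protein that can restrain as well as drive AP-1 targets. It stood at 158, 151 and 169 CPM in steady state and at 341, 287, 312 and 529 CPM at day 12. All day 12 libraries were higher than all of steady state, and replicate 4 was the highest. The mean went from 159 ± 8.95 CPM (n = 3) to 367 ± 110 CPM (n = 4), with a log2 fold change of 1.21 (SE 0.21, edgeR adjusted p = 0.00359). Without day 12 replicate 4 it was 0.98 (SE 0.09, adjusted p = 0.000309). Junb shares 351 bases with Prdx2 on the other strand, itself at 82.6 CPM on average in steady state against 125 CPM at day 12, so the Junb level is uncertain to that extent.

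Jun (ENSMUSG00000052684, chromosome 4, 94937271 to 94940459), which encodes an AP-1 subunit that can pair with itself, stood at 57.7, 71.3 and 69.1 CPM in steady state and at 79.6, 92.9, 76.9 and 114 CPM at day 12. The groups did not overlap, but the lowest day 12 library was only 1.08 times the highest of steady state. The log2 fold change of 0.46 (SE 0.15) did not pass (edgeR adjusted p = 0.0644). Jund (ENSMUSG00000071076, chromosome 8, 71151599 to 71153265), which is expressed in resting cells of many types, stood at 64.4, 65.8 and 74.7 CPM in steady state and at 88.6, 80.8, 98.9 and 155 CPM at day 12. Here too the groups lay side by side without overlap, with replicate 4 far above the other day 12 libraries. The log2 fold change was 0.63 (SE 0.21, edgeR adjusted p = 0.0644). Jun shares 689 bases with the antisense RNA Junos and Jund 919 bases with the antisense RNA Gm11175, at 1.69 and 6.13 CPM at day 12.

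Among the EGR factors, Egr1 (ENSMUSG00000038418, chromosome 18, 34992876 to 34998037) is the member that growth factor and MAP kinase signals induce in most cells. It stood at 6.02, 5.77 and 7.89 CPM in steady state and at 45.3, 59.9, 36.9 and 34.5 CPM at day 12. The lowest day 12 library was 4.37 times the highest of steady state, and replicate 2 was the highest at day 12. The log2 fold change was 2.75 (SE 0.22, edgeR adjusted p = 0.000109), or 6.74-fold, from 6.56 ± 1.16 CPM (n = 3) to 44.1 ± 11.5 CPM (n = 4).

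Egr2 (ENSMUSG00000037868, chromosome 10, 67371305 to 67378018), which interleukin 4 induces in macrophages, stood at 1.42, 1.60 and 1.98 CPM in steady state and at 4.42, 2.46, 3.34 and 1.86 CPM at day 12. The value of replicate 4 was within the range of steady state, and the log2 fold change of 0.86 (SE 0.32) did not pass (edgeR adjusted p = 0.0867). Egr3 (ENSMUSG00000033730, chromosome 14, 70314652 to 70320063), itself a target of calcium and NFAT signals in lymphocytes, stood at 0.771, 0.224 and 0.862 CPM in steady state and at 0.741, 0.477, 0.631 and 0.841 CPM at day 12. The groups overlapped, and the 95% interval of its log2 fold change of 0.13 was wide, from -0.90 to 1.15 (edgeR adjusted p = 0.876).

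Day 12 replicate 4 thus held the highest Jun, Junb and Jund and the lowest Fos, Egr1 and Egr2 of its group. Without it, 7 members passed in place of 4: Jun (log2 fold change 0.34, edgeR adjusted p = 0.0481), Jund (0.39, adjusted p = 0.0190) and Egr2 (1.03, adjusted p = 0.0229) joined Fos, Fosb, Junb and Egr1. Calls grew over all genes too in the fit without day 12 replicate 4, to 2188 higher and 2411 lower from 1616 and 1626. The Jun call also came without day 12 replicate 3 (adjusted p = 0.0450), and the Jund call without day 12 replicate 2 (adjusted p = 0.0410). Fos, Fosb, Junb and Egr1 kept their calls in all 7 fits with a library left out, with log2 fold changes of 2.18 to 2.69, 2.98 to 3.62, 0.98 to 1.34 and 2.60 to 2.90.

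**Figure D2:**
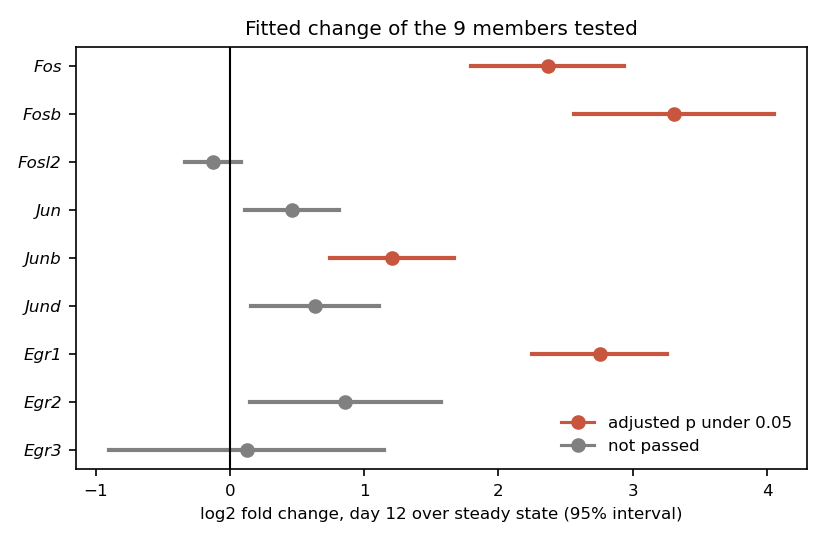
Fitted log2 fold change (day 12 over steady state, horizontal axis) of the 9 tested members with its 95% interval, red where the adjusted p was below 0.05. Fosb (3.31), Egr1 (2.75), Fos (2.37) and Junb (1.21) passed, and the interval of Fosl2 (-0.34 to 0.08) lies close to 0.

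To set members beside each other, CPM were divided by the exon length of each gene in kilobases (union of exons, GENCODE M21 on GRCm38). On this scale Junb was the highest member in both groups, at 69.2 ± 3.89 CPM per kb in steady state (n = 3) and 160 ± 47.9 CPM per kb at day 12 (n = 4). In steady state Jund (41.0 CPM per kb), Jun (20.7), Fos (20.7) and Fosl2 (12.3) followed, with the ranges of Jun and Fos overlapping. At day 12 Fos was second with 107 ± 18.9 CPM per kb, and its range overlapped that of Jund (63.4 ± 20.1). Egr1 went from 1.46 ± 0.258 to 9.85 ± 2.56 CPM per kb, where its range met that of Fosl2 (11.3 ± 0.688). Fosb (1.47) and Egr2 (0.889) overlapped at day 12, and Egr3 (0.153) and Fosl1 (0.0435) were the lowest.

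Shares within each family were set apart in the same way. Fos made up 54.1% to 69.7% of the length-corrected FOS family signal in steady state and 85.6% to 90.9% at day 12, and Fosl2 30.0% to 45.3% and 8.14% to 12.9%. Junb made up 51.4% to 54.8% of the JUN family in steady state and 61.7% to 65.5% at day 12. Egr1 made up 69.3% to 71.2% of the 3 EGR genes in steady state and 87.3% to 94.1% at day 12. None of these ranges overlapped, and no test was made of the shares.

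**Figure D3:**
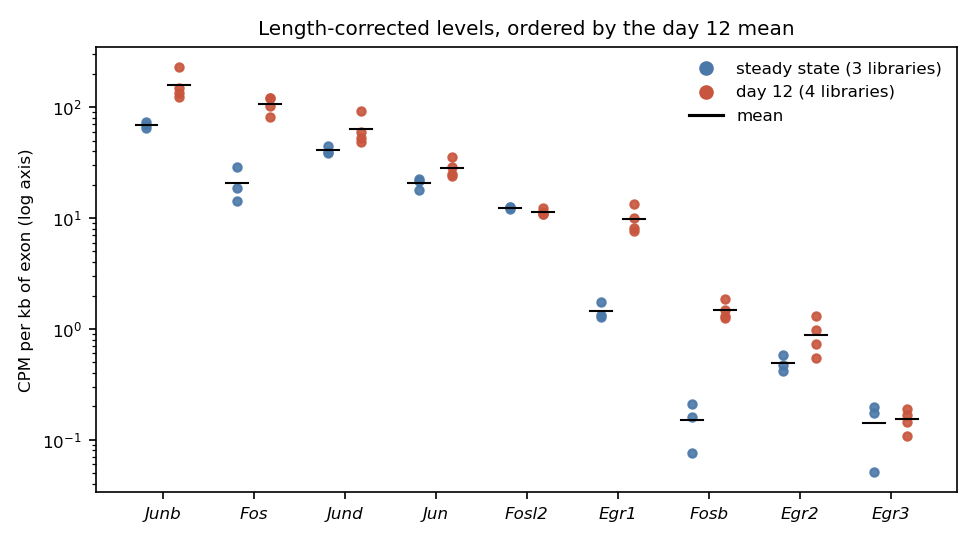
CPM per kilobase of exon on a log axis for 9 members, with a point per library and a line at the mean of each group, ordered by the day 12 mean. Fosl1 is left out because 2 of its steady-state libraries are at 0. Junb leads in both groups, and Fos moves from 20.7 to 107 CPM per kb.

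By the root mean square difference of centred log2 CPM over the 7 libraries, the genes with the pattern most like that of Fos were Slc4a4 (0.219), a bicarbonate cotransporter, St7 (0.236) and Rnf128 (0.245), an E3 ubiquitin ligase, out of 12331 genes. St7 stood at 14.9 ± 2.71 CPM (n = 3) and 70.3 ± 11.2 CPM (n = 4), and Rnf128 at 10.8 ± 1.80 and 60.1 ± 15.1 CPM. Slc4a4 had only 1 to 5 reads in a steady-state library and passed the filter on low counts only through day 12 libraries. Its steady-state mean of 0.0771 CPM was below the pseudocount of 0.1 CPM, which shrinks its change on this scale. Its rank with another pseudocount was not tested. Among the members Egr1 was nearest to Fos (0.444), before Fosb (0.767) and Junb (0.800).

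Other leucine zipper proteins can replace FOS or JUN in these pairs. Of 18 tested genes of the ATF, BATF, MAF and related factors, 2 rose and 3 fell, with a median log2 fold change of 0.02. These counts are not far from the 10.1% higher and 10.2% lower over all genes tested. Maf, a macrophage factor, fell from 198 ± 44.7 CPM (n = 3) to 99.3 ± 5.93 CPM (n = 4; log2 fold change -0.99, edgeR adjusted p = 0.00185), with all day 12 libraries lower. Batf2, an interferon-induced partner of JUN proteins, rose from 7.99 ± 0.177 to 20.8 ± 9.40 CPM (adjusted p = 0.0121), a call lost without steady-state replicate 1, 2 or 3 (adjusted p 0.0508 to 0.0523). Atf3, a stress-induced repressor, rose from 32.2 ± 7.48 to 56.3 ± 9.34 CPM (adjusted p = 0.0148), a call that leaving out steady-state replicate 2 removed (0.0527). Atf7 fell from 102 ± 3.45 to 77.4 ± 4.38 CPM (adjusted p = 0.0158, and 0.0528 to 0.0852 without steady-state replicate 1, 2 or 3). The counts of this list fell to 0 or 1 higher and 1 lower without steady-state replicate 1, 2 or 3, and were 4 higher and 3 lower without day 12 replicate 4.

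Of 19 tested kinases and serum response factors upstream of Fos and Egr1, 2 rose and 3 fell, with a median log2 fold change of -0.06. These counts are not far from the shares over all genes tested, 10.1% higher and 10.2% lower. Elk3, a partner of serum response factor that can repress Fos, fell from 52.3 ± 8.51 CPM (n = 3) to 21.8 ± 3.47 CPM (n = 4; log2 fold change -1.26, edgeR adjusted p = 0.000734). Srf, chosen after its values were seen, stood at 35.4, 32.7 and 35.9 CPM in steady-state and at 33.2, 31.6, 33.2 and 65.0 CPM in day 12 libraries and did not pass (edgeR adjusted p = 0.555). The high library was again day 12 replicate 4, without which its log2 fold change of 0.23 was -0.0818. The kinase gene Braf stood at 68.2 and 93.3 CPM (adjusted p = 0.0306), the JNK gene Mapk9 at 71.3 and 92.0 CPM (0.0353), Mrtfb, an actin-regulated coactivator, at 23.8 and 17.6 CPM (0.0260), and the ERK gene Mapk3, named after its values were seen, at 67.7 and 48.2 CPM (0.0410). These 4 calls were lost in 4 to 6 of the 7 fits with a library left out (adjusted p 0.0568 to 0.172 where lost). No member of the list rose, and Elk3 alone fell, without steady-state replicate 1, 2 or 3 or day 12 replicate 1. Elk3 was also the only one that fell without day 12 replicate 2 or 3, and 5 fell without day 12 replicate 4.

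ERK signalling induces inhibitors that act back on it. Of 17 tested feedback inhibitors and EGR corepressors, 3 rose and 6 fell, with a median log2 fold change of -0.13. The shares over all genes tested were 10.1% higher and 10.2% lower. Dusp6, the ERK-selective phosphatase, stood at 222, 214 and 222 CPM in steady state and at 24.1, 45.5, 15.6 and 32.5 CPM at day 12 (log2 fold change -2.90, SE 0.31, edgeR adjusted p = 0.000567). All its day 12 libraries lay far lower than those of steady state, the opposite direction to Fos and Egr1. Spred1, an inhibitor of RAF activation by RAS, fell from 132 ± 4.79 to 31.8 ± 10.2 CPM (adjusted p = 0.000307) and Dusp7, a further ERK phosphatase, from 100.5 ± 8.96 to 45.3 ± 8.75 CPM (adjusted p = 0.000945).

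Dusp10, a phosphatase of p38 and JNK, rose from 1.55 ± 0.10 CPM (n = 3) to 11.3 ± 3.86 CPM (n = 4; edgeR adjusted p = 0.000290). Among members named after their values were seen, Spred2 and Spry2 fell (log2 fold change -1.45 and -1.42, adjusted p = 0.00177 and 0.00149) and Dusp16, a JNK phosphatase, rose (1.09, adjusted p = 0.00118). The fall of Zfp36l1 (-0.50, adjusted p = 0.0209) was lost without any steady-state library or day 12 replicate 1 or 2 (adjusted p 0.0546 to 0.0954), while Zfp36, which destabilises cytokine and immediate early transcripts, rose from 225 ± 25.9 to 361 ± 21.2 CPM (adjusted p = 0.00342). Nab1 and Nab2, also picked with their values in view, are corepressors that bind EGR proteins and did not pass (log2 fold change -0.31 and 0.24, adjusted p = 0.0718 and 0.233).

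**Figure D4:**
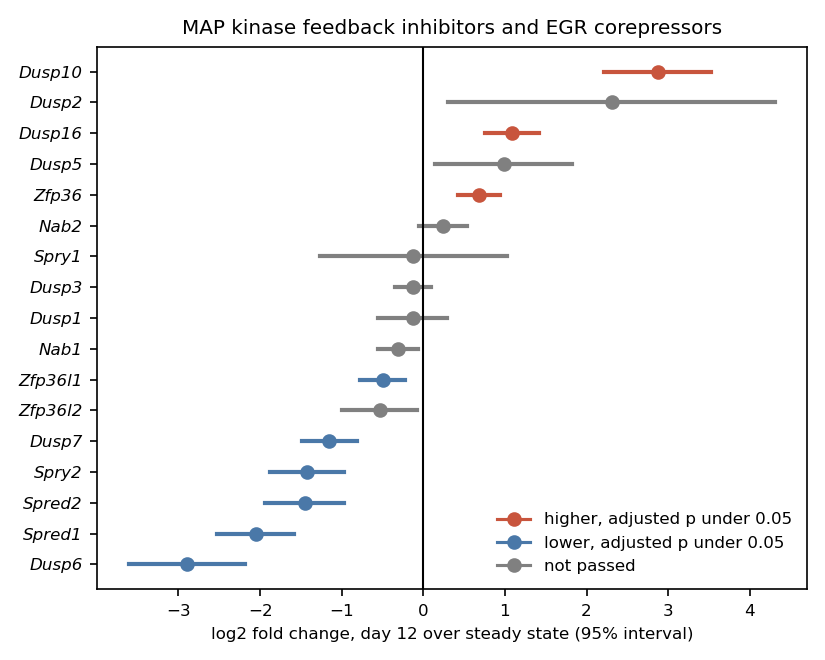
Fitted log2 fold change (day 12 over steady state) with its 95% interval for the 17 tested feedback inhibitors and EGR corepressors, red where higher and blue where lower at an adjusted p below 0.05. Dusp6 (-2.90) and Spred1 (-2.06) are the lowest and Dusp10 (2.87) is the highest.

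Among 22 tested other immediate early genes, 8 rose and 4 fell, with a median log2 fold change of 0.34. Over all genes tested, 10.1% rose and 10.2% fell. The zinc finger factor Klf4 stood at 70.4, 58.8 and 83.3 CPM in steady state and at 534, 345, 585 and 420 CPM at day 12 (log2 fold change 2.73, SE 0.21, edgeR adjusted p = 9.11e-05). The kinase gene Plk2 rose from 42.3 ± 1.04 to 97.6 ± 24.0 CPM (adjusted p = 0.00182). Nr4a2, an orphan nuclear receptor, fell from 3.23 ± 0.257 to 1.23 ± 0.173 CPM (adjusted p = 0.00201), and Klf6 from 188 ± 17.1 to 114 ± 13.3 CPM (adjusted p = 0.00344). Of the 8 and 4 genes, Atf3, Ier2, Ier3, Btg2 and Nr4a1 also stand on the handling list.

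Of 19 tested genes with textbook AP-1 sites, 9 rose and 2 fell, with a median log2 fold change of 0.70. Over all genes tested, 10.1% rose and 10.2% fell. Timp1, Mmp12, Ptgs2 and Itgax had few steady-state reads and passed the filter on low counts only through day 12 libraries. A rise was thus the only direction they could show. With a filter of 1 CPM in 3 libraries, which left out Mmp12, Ptgs2 and Itgax but kept Timp1, 6 of 15 rose and 2 fell. Some of these 6, among them Timp1, Spp1 and Mmp14, reached 1 CPM in 3 libraries only with day 12 libraries. This count therefore does not set aside genes that passed through the group where they are high. Mmp12, Ptgs2 and Itgax were named after their values were seen. The cytokine gene Il6 stood at 1.99, 1.71 and 1.31 CPM in steady state and at 22.7, 22.0, 21.7 and 13.1 CPM at day 12 (log2 fold change 3.57, edgeR adjusted p = 6.86e-05). Osteopontin (Spp1) rose from 0.979 ± 0.501 CPM (n = 3) to 125 ± 51.0 CPM (n = 4; adjusted p = 0.000142), and the membrane-bound protease gene Mmp14 from 0.965 ± 0.205 to 4.75 ± 1.37 CPM (adjusted p = 0.000853). Timp1, a protease inhibitor, had a log2 fold change of 4.85 (adjusted p = 0.0010), and of 6.36 without steady-state replicate 1, which held 7 of its few steady-state reads. The members that fell, named after their values were seen, were the protease genes Mmp9, from 22.8 ± 4.14 to 0.899 ± 0.720 CPM (adjusted p = 0.00169), and Plau, from 26.6 ± 2.79 to 10.8 ± 4.50 CPM (adjusted p = 0.015, and 0.0587 and 0.0566 without steady-state replicates 1 and 3). Leaving out steady-state replicate 1, or replicate 3, left 6 that rose and 1 that fell. These genes were not chosen by any measure of AP-1 binding in these cells.

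Since AP-1 and EGR genes also respond to the handling of cells, a list of 25 genes known from tissue dissociation, the 10 members left out, was read beside them. Of these, 9 rose, 4 fell and 12 did not pass, where 10.1% of all genes tested rose and 10.2% fell. The list had a median log2 fold change of 0.24. Its summed level was 4648 to 5097 CPM in steady state and 4627 to 5468 CPM at day 12. The 4 that fell were heat shock genes, and none of the 9 that rose was one. The other heat shock and co-chaperone genes of the list did not pass and went both ways. Examples are Hspe1 (log2 fold change 0.44, edgeR adjusted p = 0.0548, all day 12 libraries higher) and Hspa8 (-0.33, adjusted p = 0.0897, all lower). Socs3, an inhibitor of cytokine receptors, stood at 128, 150 and 149 CPM in steady state and at 369, 381, 381 and 659 CPM at day 12 (log2 fold change 1.65, edgeR adjusted p = 0.00104), and Ier2 (63.8 to 108 CPM), Ier3 (30.8 to 46.7 CPM) and Btg2 (160 to 269 CPM), named after their values were seen, rose as well.

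The heat shock genes Hspa1a and Hspa1b, near-identical copies whose shares of reads are uncertain, fell. Hspa1b stood at 172, 243 and 189 CPM in steady state and at 47.1, 33.6, 50.7 and 57.2 CPM at day 12 (log2 fold change -2.09, edgeR adjusted p = 0.000163). Hspa1a went from 82.2 ± 22.0 CPM (n = 3) to 22.7 ± 5.74 CPM (n = 4; adjusted p = 0.000867). Dusp1, a p38 and JNK phosphatase named after its values were seen, is induced together with Fos in many cells. It stood at 254 ± 75.6 and 232 ± 22.8 CPM and did not pass (adjusted p = 0.681), and its log2 fold change of -0.13 was 0.10 without steady-state replicate 2. The other falling members, again named after their values were seen, were Hspb1 (log2 fold change -1.63, adjusted p = 0.00751) and Hsp90ab1 (-0.39, adjusted p = 0.0243), whose call remained only without day 12 replicate 4 among the fits with a library left out (adjusted p 0.0525 to 0.136 in the other 6). Of this list 6 or 7 members rose and 3 fell without steady-state replicate 1, 2 or 3, and 11 rose and 4 fell without day 12 replicate 4. The labels give no time between collection and lysis, so the part of handling in the rise of Fos, Fosb, Junb and Egr1 was not tested.

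**Figure D5:**
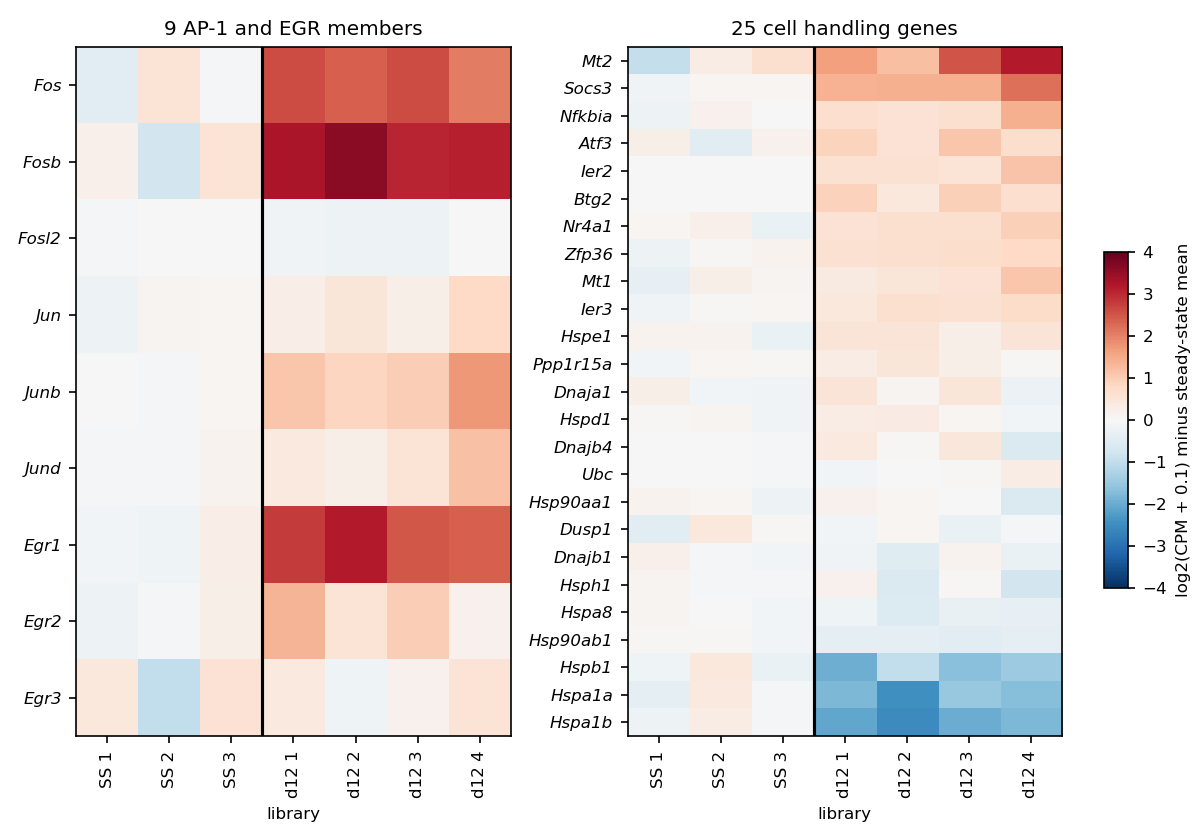
Colour gives log2(CPM + 0.1) of each gene minus its steady-state mean, in 7 libraries (columns, SS for steady state and d12 for day 12), for the 9 tested members (left) and the 25 handling genes (right, ordered by fitted change). Fos, Fosb and Egr1 are high in all 4 day 12 libraries, while Hspa1a and Hspa1b are low and Hspe1 is slightly higher in the same libraries.

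Markers of most other cell types were low in both groups. Fibroblast markers summed to 0 to 0.223 CPM in steady state and 0.879 to 1.39 CPM at day 12, with Lum at 0, and epithelial markers to 0.112 to 0.237 and 1.51 to 2.96 CPM, with Krt20 and Cdx2 at 0 in all libraries. Mesothelial markers summed to 10.1 to 11.9 CPM in steady state and 4.45 to 8.78 CPM at day 12, most of it Krt7. Neutrophil markers summed to 0.534 to 0.896 and 1.09 to 2.26 CPM, highest in day 12 replicate 4. Eosinophil markers summed to 1.75 to 1.88 and 1.63 to 2.34 CPM, and mast cell markers to 0 to 0.0593 and 0 to 0.628 CPM. The mesothelial marker Msln, the neutrophil markers Ly6g and Mpo, the eosinophil markers Prg2 and Epx and the mast cell marker Mrgprb1 were at 0 in all 7 libraries. B cell markers summed to 3.30 to 5.04 CPM in steady state and 7.71 to 20.7 CPM at day 12, and T cell markers to 0.560 to 0.958 and 1.08 to 2.81 CPM. Monocyte markers ranged from 61.2 to 70.4 CPM in steady state. They summed to 49.4, 143, 26.5 and 190 CPM in day 12 replicates 1, 2, 3 and 4, so replicate 4 was the highest. Dendritic cell markers ranged from 29.6 to 54.7 CPM in steady state and from 64.9 CPM (replicate 4) to 379 CPM at day 12, most of it Cd209a. The part of other cells in the changes of the AP-1 and EGR genes was not tested.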

How the data were processed

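Poly-A RNA of 7 libraries was measured, 3 from steady state and 4 from day 12. The values the authors deposited are unnormalised read counts for each gene. The submitters' processing notes name FastQC, STAR 2.7.11a, SAMtools 1.10, Subread 2.0.6 with featureCounts, DESeq2 1.40.2 and the build GRCm39. No source used here gives the annotation release, the strand setting or how multi-mapping reads were handled, which could change values of overlapping or near-identical genes. Sample titles gave the groups and replicate numbers, with 4 at day 12 where the extract protocol has 3 per condition.

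Counts were tested with edgeR 4.0.16 in R 4.3.3 (quasi-likelihood, robust, TMM, group as the term, filterByExpr with a minimum count of 10 and a minimum total of 15, Benjamini-Hochberg over 15981 genes). Each SE was derived from the fitted change and its F value. Alternatives were other size factors, DESeq2 1.42.0, limma-voom (limma 3.58.1), other filters, a replicate block and each library left out. The procedure was tested on simulated counts. The members and gene lists were chosen with earlier results of these data known. Named genes were all members, the 4 genes per list ranked first by p, and the 3 most like Fos. Further ones were chosen after their values were seen: every other gene of the lists that passed, and Dusp1, Srf, Nab1 and Nab2. Those not described (Nfkbiz, Rhob, Csrnp1, Plaur, Vegfa and Mt2) were counted in the lists and checks only. Hspe1 and Hspa8, examples picked with their values in view, were not put through the checks by gene. The likeness to Fos used a pseudocount of 0.1 CPM and left out predicted genes. The values of 1 further gene among the leucine zipper partners are not reported here.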

Additional observations from a re-analysis of the deposited data

Results flagged for a closer look

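Among 65 named genes, the day 12 libraries of 8 held 1 value far from the other 3, where chance gives about 1 in 20. That rate does not apply to Srf, Nfkbia, Ier2, Nr4a1 and Ptgs2, which were named after their values were seen. In 7 of these 8 the library was day 12 replicate 4. It held the highest Srf (65.0 CPM, the others 31.6 to 33.2), Socs3 (659 CPM, the others 369 to 381), Nfkbia (361 CPM, the others 202 to 214), Ier2 (141 CPM, the others 93.4 to 98.5), Nr4a1 (21.7 CPM, the others 16.8 to 17.6) and Ptgs2 (2.29 CPM, the others 0.318 to 0.628). It held the lowest Il6 (13.1 CPM, the others 21.7 to 22.7). Day 12 replicate 1 held the highest Nr4a2 (1.48 CPM, the next library 1.16). None of the AP-1 and EGR genes was so far apart in a single day 12 library.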

How the results depend on the processing

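Fos, Fosb, Junb and Egr1 stayed higher and past the threshold in all 14 alternatives, and no member was called lower in any of them. Members called higher numbered 7 in place of 4 with DESeq2, with the replicate block and without day 12 replicate 4, and 4 to 7 over the 7 fits with a library left out. Over those fits the genes called higher ranged from 857 to 2188 and those called lower from 904 to 2411. Without steady-state replicates 1, 2 and 3 they were 961, 900 and 857 higher and 907, 904 and 904 lower, where 1616 and 1626 were called with all libraries. The log2 fold change of Egr3 was -0.28 without steady-state replicate 2, in a range of -0.28 to 0.43 over those fits, and it was not tested with a filter of 1 CPM. Dusp1 ranged from -0.31 to 0.10, the last without steady-state replicate 2. Srf ranged from -0.0818, without day 12 replicate 4, to 0.37, and was -0.0810 with the replicate block. Of 64 named genes tested, 37 kept direction and call throughout, 20 lost a call in some alternative, 4 (Jun, Jund, Egr2 and Nab1) gained one and 3 (Egr3, Dusp1 and Srf) changed sign. Same-numbered libraries share only a number: their deviations correlated across genes at -0.141, 0.00775 and 0.203, and only replicate 3 correlated best with its own number. The replicate block, which leaves out day 12 replicate 4, called 1979 genes higher and 14 of the handling genes in place of 9, and the adjusted p of Hspa1a was 0.0524 with it. Handling genes called higher numbered 11 with DESeq2 and with a filter of 1 CPM, which left 6 of the genes with AP-1 sites called higher in place of 9. Other size factors moved the median log2 fold change of all genes from 0.00309 to at most 0.0267. Members under 1 CPM are limited by depth.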
